A study of Mus musculus with 8 samples.

Results

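Nes, Vim, Fabp7, Prom1, Msi1, Msi2, Hopx, Dbi and Ednrb are genes by which radial glia and neural stem cells are commonly recognised. They were examined at every probe that carries one of these 9 names, which gave 15 probes of the 25662 on the array. The 9 genes stand against 16562 named genes in all. Probes were taken by gene name alone, but the 9 genes were picked with earlier results of these data known.

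Neural progenitor cells were taken from mice of mixed C57BL/6 X 129S1/SvlmJ background as E14.5 embryos, and their RNA was measured on Illumina MouseRef-8 V2 arrays. The control group, with 4 arrays, had the genotype Prmt5F/F, in which both copies of Prmt5 are floxed and no Cre is named. The Prmt5-depleted group, also with 4 arrays, had the genotype Prmt5F/FNes, the same floxed alleles with Cre driven by Nestin. Prmt5 encodes an arginine methyltransferase that modifies histones and splicing proteins. Since no Cre-only group is among these samples, effects of Cre and of Prmt5 loss cannot be told apart. Cre expression followed the Nestin driver, so only cells with Nestin activity, and their descendants, could lose Prmt5. Whether a genotype's arrays hold separate embryos or cultures is not in the labels, so p-values measure only the spread between these samples.

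Radial glia are the stem cells of the embryonic brain. They span the wall of the neural tube, divide at its inner surface and give rise to neurons and later to glia. Their long fibres hold the intermediate filament proteins nestin (Nes) and vimentin (Vim), and their cytoplasm is rich in the fatty acid binding protein Fabp7. Prom1 encodes prominin, a protein of membrane protrusions at the inner surface. The Musashi proteins Msi1 and Msi2 bind RNA and regulate translation, Hopx is a homeodomain protein without DNA binding, Dbi binds acyl-CoA esters, and Ednrb is a receptor for endothelins.

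Prmt5 itself fell in the Prmt5-depleted cells at all 3 of its probes. At the brightest, ILMN_2983093, the log2 signal was 10.39 ± 0.25 (SD, n = 4) in control cells and 7.69 ± 0.41 (SD, n = 4) in Prmt5-depleted cells, a 6.49-fold fall (limma adjusted p = 1.04e-06). Where these probes lie relative to the floxed part of the gene was not determined. The mean deposited intensity of an array lay between 449 and 598 units, and between 12518 and 13602 probes per array were detected. Control 4 and Prmt5-depleted 1 and 3 stood apart from the other arrays along the second principal component, which held 10.5% of the variance, and the member results that moved without these 3 arrays are given both ways. With 4 arrays a genotype, precision is limited by their number.

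The filament genes Nes and Vim are the members in which a genotype difference passed the test, so the sequence before the start of each is shown. Both come from the RefSeq promoter table (GRCm38.p6), plus strand, and cover the 250 bases before the annotated start. Capitals mark matches on either strand. The motifs searched were the TATA box, spelled TATAAA, the CCAAT box with the letters of its name, the GC box, spelled GGGCGG, and the core of the site for RBPJ, the DNA-binding factor of Notch signalling, spelled TGGGAA. No match overlapped another.
Vim, chr2:13574061-13574310: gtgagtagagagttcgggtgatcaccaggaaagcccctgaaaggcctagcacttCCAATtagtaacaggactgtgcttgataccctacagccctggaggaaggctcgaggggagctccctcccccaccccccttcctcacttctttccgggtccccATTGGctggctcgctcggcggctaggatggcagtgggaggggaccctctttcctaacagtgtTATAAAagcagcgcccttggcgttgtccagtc
Nes, chr3:87970843-87971092: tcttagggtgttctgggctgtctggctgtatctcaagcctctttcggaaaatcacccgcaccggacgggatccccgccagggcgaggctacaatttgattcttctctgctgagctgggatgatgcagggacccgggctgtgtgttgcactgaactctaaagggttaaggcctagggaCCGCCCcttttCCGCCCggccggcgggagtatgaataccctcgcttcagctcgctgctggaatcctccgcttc
The Vim window held 1 TATA box, which began 32 bases before the start, and CCAAT boxes that began 196 and 94 bases before it. The Nes window held 2 GC boxes, which began 73 and 62 bases before the start, and none of the other motifs. No motif occurred in both windows.

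Windows were found for 8 of the 9 members, 13 windows in all because some genes have several starts. Among them 1 held a TATA box, 10 a CCAAT box, 5 a GC box and 2 an RBPJ core. Of the 32851 windows of the whole table, 12.4% held a TATA box, 33.8% a CCAAT box, 32.7% a GC box and 21.6% an RBPJ core. The RBPJ core matches lay in the Fabp7 window and in 1 of the Prom1 windows. Overlapping windows of Msi2 and of Dbi share sequence and are not separate observations. These matches describe the letters of the windows and no factor binding was measured.

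Most probes of the markers that could be measured differed little between the genotypes. Signals were background corrected, quantile normalized and log2 transformed, and a probe was tested when 4 or more of the 8 arrays detected it (detection p-value under 0.05). Of the 15 member probes, 12 were kept, from 6 genes, and each of the 12 was detected on all 8 arrays. Of these 12 probes, 2 rose in Prmt5-depleted cells, 0 fell and 10 missed the threshold (limma adjusted p over all kept probes, threshold 0.05). Across all 13196 kept probes, 22.1% were called higher and 24.7% lower, 46.7% in all. The median absolute log2 difference was 0.16 over the 12 member probes and 0.36 over all kept probes. These 12 probes are not separate observations, since 4 of the 6 genes had 2 or more of them. No member probe changed by 1.5-fold or more in its estimate, whereas 31.6% of kept probes did. The typical spread within a genotype was similar, with a median SD of 0.23 for member probes and 0.21 for all kept probes. In bulk RNA, fewer cells of a type and less RNA per cell cannot be told apart.

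**Figure D1:**
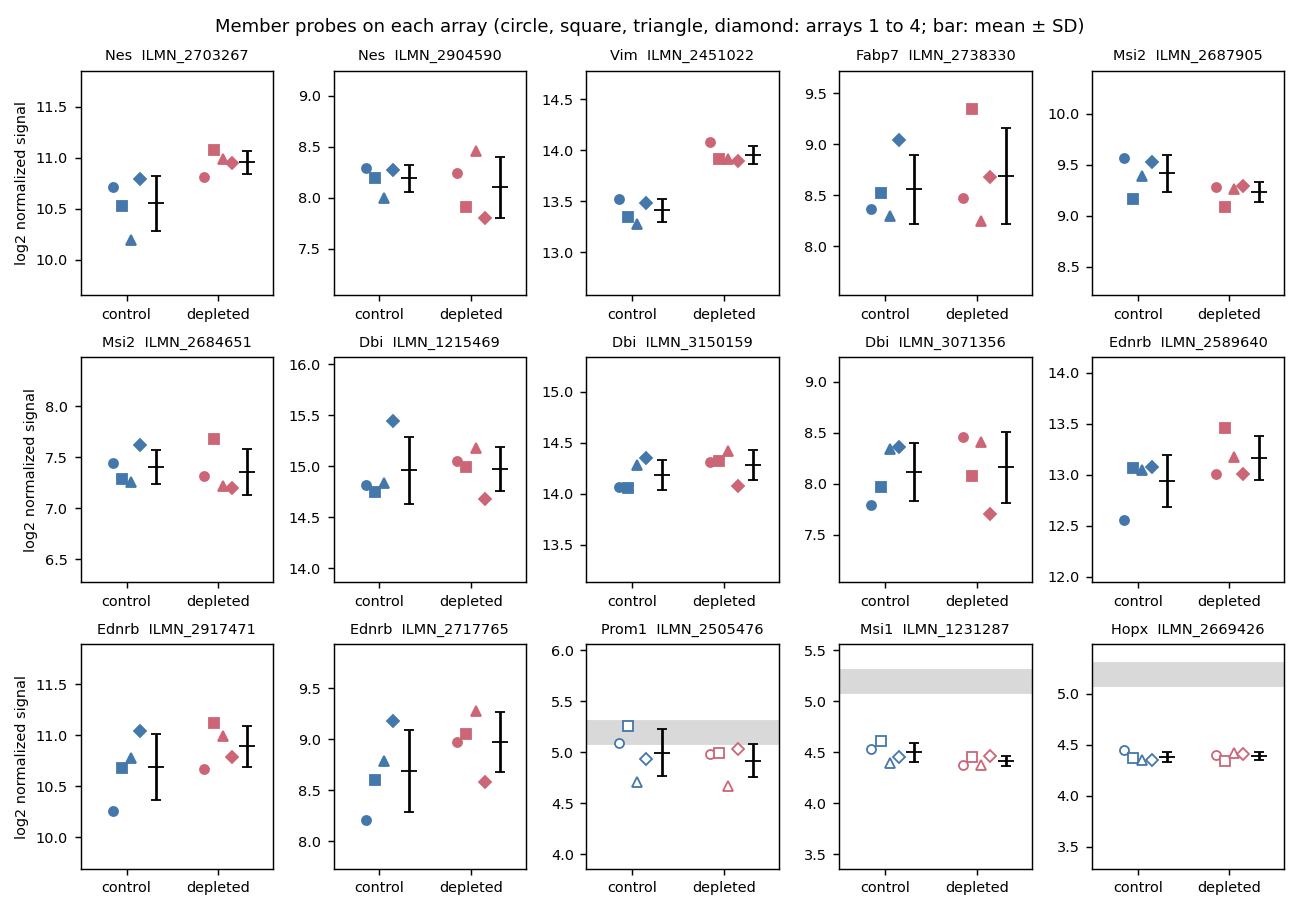
Normalized log2 signal (vertical axis) of each of the 15 member probes on the 4 control arrays (blue) and the 4 Prmt5-depleted arrays (red), with the mean and SD of each genotype in black; every panel spans 2.2 log2 units. Open symbols mark the 3 probes not kept for testing, and the grey band in their panels is the range over arrays of the lowest signal of a detected probe, 5.08 to 5.30; the groups stand apart at Vim and at the brighter Nes probe.

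The structural genes come first. Vim encodes vimentin, a filament protein of radial glia that is also abundant in mesenchymal and endothelial cells. Its single probe, ILMN_2451022, was brighter than 99.2% of kept probes. The log2 signals of control 1 to 4 were 13.53, 13.35, 13.28 and 13.48, and those of Prmt5-depleted 1 to 4 were 14.08, 13.92, 13.92 and 13.90. Every Prmt5-depleted array lay above every control array. Vim rose 1.46-fold (log2 difference 0.54, standard error 0.11, 95% interval 0.29 to 0.79, limma adjusted p = 0.00205). Of all kept probes, 65.6% had a smaller absolute difference, and in 43.1% the genotypes did not overlap.

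The separation at Vim appeared after normalization. Before it, the control arrays had deposited intensities of 10160.1, 10907, 10386 and 13553, in the order of their numbers. The Prmt5-depleted arrays had 17721, 15364, 15235 and 12265. Prmt5-depleted 4, the array of that genotype with the lowest mean intensity, then lay below control 4, the control array with the highest. In 1 alternative the background-corrected arrays were shifted to a common median in place of quantile scaling. The log2 difference was then 0.34 and the call was lost (limma adjusted p = 0.0814). In the other 19 of 20 alternatives the call was kept, with log2 differences from 0.49 to 0.60. Among these, the alternative without background correction and the authors' matrix gave the same values and are not separate.

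Nes encodes nestin, the filament protein that co-assembles with vimentin in neural stem cells. At the brighter probe, ILMN_2703267, control 1 to 4 had log2 signals of 10.72, 10.52, 10.19 and 10.80, and Prmt5-depleted 1 to 4 had 10.81, 11.08, 10.99 and 10.95. The groups did not overlap, although control 4 came close to Prmt5-depleted 1. This probe rose 1.32-fold (log2 difference 0.40, standard error 0.15, 95% interval 0.08 to 0.72, limma adjusted p = 0.041). The call was lost without control 2 (adjusted p = 0.0836), control 3 (0.125), Prmt5-depleted 2 (0.096), Prmt5-depleted 3 (0.084) or Prmt5-depleted 4 (0.0722). It was also lost with median scaling (adjusted p = 0.116), without the detection filter (0.0601) and with the replicate number as a block (0.0749). Leaving out control 3, the lowest array, lowered the estimate to 0.28, and leaving out the 3 arrays that stood apart raised it to 0.54 (limma adjusted p = 0.0366).

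The dimmer Nes probe, ILMN_2904590, read 8.29, 8.19, 8.003 and 8.27 in control 1 to 4 and 8.25, 7.91, 8.46 and 7.81 in Prmt5-depleted 1 to 4. The groups overlapped, and the lowest and the highest of the 8 values were both in Prmt5-depleted cells. Its log2 difference was -0.09 (standard error 0.16, 95% interval -0.43 to 0.25, limma adjusted p = 0.676). Without the 3 arrays that stood apart it was -0.30, still not called (limma adjusted p = 0.132). The probes of Nes therefore gave different answers, 1 higher and 1 not called.

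Whether probes of a gene changed unequally was asked by fitting the within-array difference between the brightest kept probe and each other kept probe of the same gene, over all 3421 such pairs. The brighter minus the dimmer Nes probe was 2.37 ± 0.14 (SD, n = 4) in control cells and 2.85 ± 0.35 (SD, n = 4) in Prmt5-depleted cells. The values did not overlap between genotypes, but the shift of 0.49 (standard error 0.17) was not called (limma adjusted p = 0.111). How many of all pairs do not overlap was not counted, so the lack of overlap has no share to be read against. Of all pairs, 8.74% were called, and 0 of the 6 pairs from members were. On Prmt5-depleted 2 and 4 the difference was 3.17 and 3.14, and on Prmt5-depleted 1 and 3 it was 2.56 and 2.53. Prmt5-depleted 1 and 3 are also the depleted arrays that stood apart along the second component.

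The changes of Nes and Vim were then set against each other on the same arrays. The brighter Nes probe minus Vim was -2.85 ± 0.17 (SD, n = 4) in control cells and -2.998 ± 0.19 (SD, n = 4) in Prmt5-depleted cells. The shift of -0.14 did not pass a two-sided exact permutation test (p = 0.343, where the smallest p the design allows is 0.0286). With the mean of both Nes probes in place of the brighter one, the shift was -0.39 and reached that smallest p of 0.0286 in the exact permutation test. Whether the shift passed therefore depended on including the dimmer Nes probe, and these p-values were not adjusted for the number of alternatives run.

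**Figure D2:**
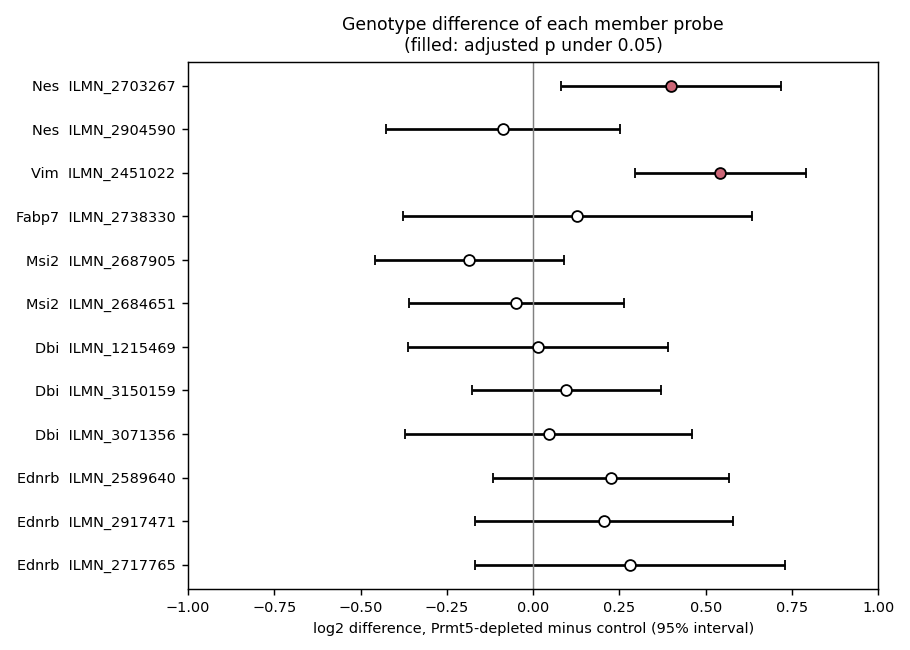
Log2 difference between Prmt5-depleted and control cells (horizontal axis) for the 12 kept member probes, with the 95% interval of the linear model; filled points passed the test. The filled points are Vim at 0.54 and the brighter Nes probe at 0.40. Every interval lies within 2-fold in either direction, as do the intervals of 72.1% of all kept probes.

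Fabp7 encodes the brain fatty acid binding protein, abundant in radial glia and early astrocytes. Its probe, ILMN_2738330, read 8.36, 8.53, 8.30 and 9.04 in control 1 to 4 and 8.47, 9.34, 8.25 and 8.68 in Prmt5-depleted 1 to 4. Control 4 and Prmt5-depleted 2 were the highest of their groups, and the groups overlapped. The log2 difference was 0.13 (standard error 0.23, 95% interval -0.38 to 0.63, limma adjusted p = 0.678), the widest interval among the member probes. Without Prmt5-depleted 2 the difference was -0.09 (adjusted p = 0.739). Without control 4 and Prmt5-depleted 1 and 3, a choice made after the data were seen, Fabp7 was 0.61 higher on the log2 scale and passed the test (limma adjusted p = 0.035). The direction at Fabp7 thus rested on which arrays were compared.

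Dbi encodes an acyl-CoA binding protein that is also the precursor of peptides acting on GABA-A receptors. Its brightest probe, ILMN_1215469, exceeded 99.9% of kept probes. The log2 signals were 14.81, 14.74, 14.84 and 15.44 in control 1 to 4 and 15.05, 14.99, 15.18 and 14.68 in Prmt5-depleted 1 to 4. Both the highest value, on control 4, and the lowest, on Prmt5-depleted 4, lay outside the range of the other genotype. The log2 difference was 0.01 (standard error 0.17, 95% interval -0.36 to 0.39). The probes ILMN_3150159 and ILMN_3071356 differed by 0.10 and 0.04. The adjusted p-values of the 3 probes ran from 0.559 to 0.952 in limma. The 3 probes shared their pattern over arrays, with Prmt5-depleted 4 the lowest and Prmt5-depleted 3 or 1 the highest of the depleted arrays at each, and control 4 the highest control array at each. No shift between genotypes was called in the differences between Dbi probes (-0.08 and -0.03 on the log2 scale, limma adjusted p = 0.786 and 0.94).

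Ednrb encodes the endothelin receptor type B, which in the brain marks radial glia, astrocytes and endothelium. Its brightest probe, ILMN_2589640, read 12.55, 13.07, 13.04 and 13.08 in control 1 to 4 and 13.01, 13.46, 13.17 and 13.01 in Prmt5-depleted 1 to 4. Control 1 lay well below the other arrays, which overlapped. The log2 difference was 0.23 (standard error 0.16, 95% interval -0.12 to 0.57, limma adjusted p = 0.261). The probes ILMN_2917471 and ILMN_2717765 differed by 0.20 and 0.28, with limma adjusted p-values of 0.353 and 0.287. At all 3 probes control 1 was the lowest of the 8 arrays. Without control 1 the 3 log2 differences were 0.10, 0.06 and 0.12, and without the 3 arrays that stood apart they were 0.34, 0.39 and 0.29, none of them called.

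**Figure D3:**
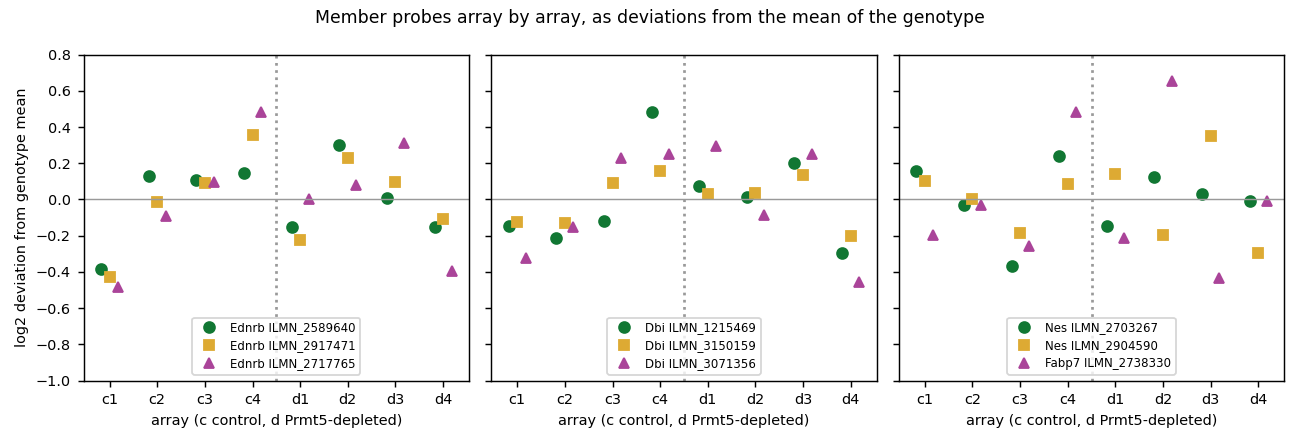
Log2 deviation of each array from the mean of its genotype (vertical axis) for the probes of Ednrb, Dbi, Nes and Fabp7, with arrays along the horizontal axis (c1 to c4 control, d1 to d4 Prmt5-depleted). The Ednrb probes are all lowest on control 1 and the Dbi probes all lowest on Prmt5-depleted 4 within their genotypes, whereas the Nes probes deviate in opposite directions on Prmt5-depleted 2.

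Among the RNA-binding stem cell factors, Msi2 was measured and Msi1 was not. At the brighter Msi2 probe, ILMN_2687905, control 1 to 4 read 9.57, 9.17, 9.39 and 9.53 and Prmt5-depleted 1 to 4 read 9.28, 9.08, 9.26 and 9.29. Control 2 fell within the range of the depleted arrays and the other control arrays lay above all of them. The log2 difference was -0.18 (standard error 0.13, 95% interval -0.46 to 0.09, limma adjusted p = 0.251). The second probe, ILMN_2684651, differed by -0.05 (limma adjusted p = 0.799), and the difference between the Msi2 probes was not called either (adjusted p = 0.695). Both intervals include 0 and neither reaches a change of 1.5-fold.

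Msi1, Hopx and Prom1 each had 1 probe on the array and none was kept. The Msi1 probe, ILMN_1231287, was detected on 0 of 8 arrays, with detection p-values from 0.427 to 0.9749 and deposited intensities from 57.6 to 75.4. The Hopx probe, ILMN_2669426, was also detected on 0 of 8 arrays, with detection p-values from 0.827 to 0.992 and intensities from 56.7 to 63.0. The Prom1 probe, ILMN_2505476, was detected on control 2 alone (detection p-value 0.0426), and its intensities ran from 74.6 to 97.1. Normalized signals of Msi1 and Hopx lay below the lowest signal of a detected probe on every array. At this signal no change of these 3 genes could be shown, and a comparison of Msi1 with Msi2 was not possible. An array probe not above background does not show that the transcript is missing.

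**Figure D4:**
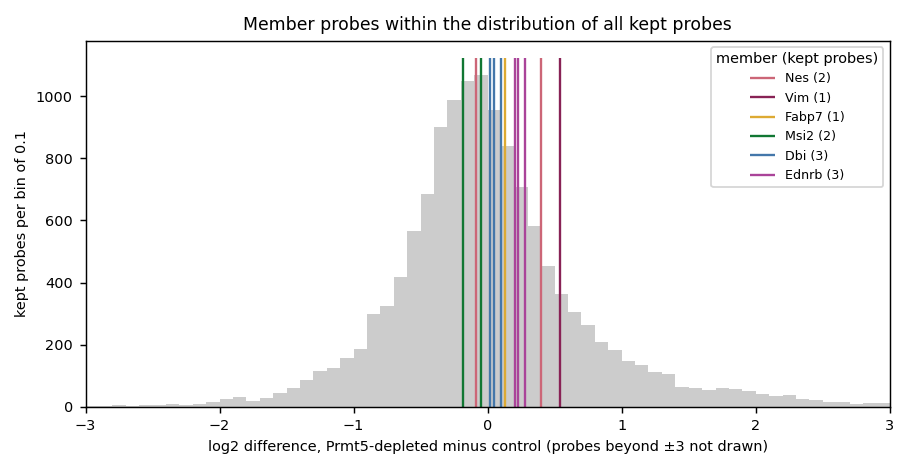
Number of kept probes (vertical axis) by log2 difference between Prmt5-depleted and control cells (horizontal axis, bins of 0.1), with the 12 kept member probes as coloured lines. The member lines run from -0.18 (Msi2) to 0.54 (Vim), and the median of the 13196 kept probes was -0.06.

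Other genes of radial glia and neural stem cells were described for comparison, each by its brightest kept probe. Of 9001 such genes tested, 23.7% were called higher and 24.1% lower, 47.8% in all, and the median log2 difference was -0.04. By gene, 2 of the 6 measured members were higher (Vim and Nes), 0 were lower and 4 were not called, with a median of 0.18. Of the 32 other radial glia and stem cell genes listed, 24 were measured, of which 12 fell, 4 rose and 8 missed the threshold, with a median of -0.48. Pax6, Notch2, Emx2, Nfia and Gas1 of this list were detected on no array. Hes5, a transcriptional repressor downstream of Notch, fell 8.79-fold, and the growth factor receptor gene Fgfr3 fell 6.55-fold. Sox2, a transcription factor that maintains stem cells, fell 2.32-fold. Id4, whose protein keeps helix-loop-helix factors from DNA, rose 2.79-fold, and the cyclin gene Ccnd2 rose 2.13-fold. The adjusted p-values of these 5 genes in limma were between 5.28e-08 and 2.52e-05. Across all alternatives run, between 12 and 14 of these genes fell and between 4 and 6 rose. Whether the members as a set differ from these genes was not tested.

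The filament system around Nes and Vim changed in both directions. Of 17 listed filament and filament-partner genes, 10 were measured, of which 6 rose, 2 fell and 2 missed the threshold, with a median log2 difference of 1.03. Synm encodes synemin, a partner of vimentin and nestin filaments, and rose 3.98-fold. Ina and Nefm, filament genes of neurons, rose 3.81-fold and 3.98-fold. The nuclear lamin gene Lmna rose 2.27-fold, while the B-type lamin genes Lmnb1 and Lmnb2 fell 2.02-fold and 1.98-fold. Plec and Dst, which encode linkers between filaments and other structures, were the other genes that rose. The 6 higher and 2 lower calls kept their number under every alternative run, while the number measured ran from 9 to 16 with the choice of detection filter. Without that filter the median was 0.14. Gfap, the filament gene of astrocytes, was not detected on any array.

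Relatives of Fabp7 and Dbi were listed as fatty acid, retinoid and acyl-CoA binding genes. Of 18 listed, 13 were measured, of which 6 rose, 2 fell and 5 missed the threshold, with a median log2 difference of 0.18. That median was 0.049, 0.0012, 0.013 and 0.011 without Prmt5-depleted 1, 2, 3 and 4, in turn. In each of these cases 12 genes were measured, because Crabp1, detected on depleted arrays only, fell short of the filter's 4 arrays. With the split along the second component as a covariate, 5 genes fell. Without Prmt5-depleted 1 or 3, 4 of the 12 measured genes rose. With all probes of a gene averaged the median was -0.062. Fabp3, the fatty acid binding protein first known from heart, rose 6.40-fold. Crabp1, a retinoic acid binding protein detected on no control array, rose at least 3.10-fold. Acbd5, a peroxisomal acyl-CoA binding protein, rose 1.58-fold, with detection on 1 of 4 control arrays. Acbd6 fell 1.56-fold and the acyl-CoA synthetase gene Acsl3 fell 1.59-fold. The adjusted p-values of these 5 genes in limma were at most 0.00929. Fabp5, a close relative of Fabp7, had a log2 difference of -0.31 that was not called (limma adjusted p = 0.0837).

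Around Ednrb, 6 of 12 listed endothelin pathway genes were measured, of which 2 rose, 3 fell and 1 missed the threshold, with a median log2 difference of -0.12. Leaving out any 1 depleted array left 5 genes measured, of which 1 rose, with medians from -0.42 to -0.36. Ecel1, detected on depleted arrays only, then fell short of the filter's 4 arrays. The endothelin converting enzyme genes Ece1 and Ece2 fell 1.44-fold and 1.73-fold. Gnaq, a G protein subunit that couples to endothelin receptors, rose 1.81-fold. Ecel1, a neuronal protease related to these enzymes, rose at least 1.33-fold. Ligand genes Edn2 and Edn3 were not detected on any array.

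Around the Musashi genes, 8 of 13 listed RNA-binding, Numb and prominin relatives were measured, of which 3 rose, 1 fell and 4 missed the threshold, with a median log2 difference of -0.07, which ran from -0.20 to 0.028 across the alternatives. The neuronal RNA-binding protein genes Elavl3, Elavl2 and Elavl4 rose 3.06-fold, 2.11-fold and 1.80-fold. Their ubiquitous relative Elavl1 fell 1.74-fold. Numbl, a relative of the Musashi target Numb, had a log2 difference of 0.04 that was not called (limma adjusted p = 0.861).

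Markers of other cell types moved with the genotypes in which Vim and Nes differed. Summed normalized signals are given for each list over its brightest probes on the array, detected or not. Of 23 listed neuron markers, 17 were measured, of which 16 rose and 1 missed the threshold. Their summed signal was 8681 to 9528 in control cells and 27247 to 29404 in Prmt5-depleted cells. Stmn2, a tubulin regulator of growing axons, rose 6.25-fold and Tbr1, a transcription factor of cortical neurons, rose 8.10-fold. The listed neuron markers Snap25, Neurod6, Nefl, Gad2, Dlx2 and Dlx5 were detected on no array. Neurod1, among the 16 that rose, was detected on no control array. Elavl3, Elavl4, Ina and Nefm are among the neuron markers that rose and were already counted in lists above, so these are not separate observations. Of 11 measured proliferation genes, 10 fell and 1 missed the threshold, with summed signals of 25246 to 29191 and 9341 to 13721. Of 6 measured intermediate progenitor markers, 4 fell and 2 missed the threshold, with summed signals of 4038 to 5893 and 3199 to 3394. Gadd45g, a growth arrest gene, made up 54.2% to 83.6% of that sum, and without it the sums were 1848 to 2627 and 554 to 883. Mfng, a modifier of Notch receptors, fell 12.7-fold, and Eomes, Neurog1 and Btg2 of this list were detected on no array. Dll3, among the 4 that fell, was detected on no depleted array. Leaving out any 1 control array left 5 progenitor markers measured, of which 3 fell. Of 9 measured oligodendrocyte lineage markers, 8 fell and 1 rose, with summed signals of 36739 to 40898 and 23573 to 27844. Olig1, a transcription factor of this lineage that fell 1.39-fold, made up 88.1% to 97.2% of that sum, and without it the sums were 4172 to 4649 and 767 to 1078. Pdgfra, a growth factor receptor gene of oligodendrocyte precursors, fell at least 30.6-fold, and Mbp, a myelin gene, rose 4.16-fold. Mog and Mag of this list were detected on no array. Pdgfra and Gpr17 were detected on no depleted array, and leaving out any 1 control array left 7 of this list measured, of which 6 fell. Neurod1, Dll3, Pdgfra and Gpr17 thus passed the detection filter only through the genotype where they were higher. The part of these cell types in the Vim and Nes differences was not tested.

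Vim is also a gene of mesenchymal cells. Of 6 measured mesenchymal, pericyte and meningeal markers of 12 listed, 5 rose and 1 fell, and between 2 and 7 rose across the alternatives run, in which the number measured also varied. Without Prmt5-depleted 3 the number that rose was 2, and without Prmt5-depleted 1, 2 or 4 it was 3, of 4 measured in each case. Their summed signal was 672 to 842 in control cells and 1345 to 1566 in Prmt5-depleted cells, and Col1a1, Pdgfrb and Foxd1 of this list were not detected on any array. Dcn, a matrix proteoglycan gene, rose 6.09-fold and Lum, a related gene detected on no control array, rose at least 3.55-fold. Genes detected on depleted arrays only, such as Lum, passed the filter through the genotype where they were higher. Without any 1 depleted array they fell short of its 4 arrays, whereas leaving out any 1 control array kept 6 measured. The gene that fell was Cspg4, which is also on the oligodendrocyte lineage list, by 2.40-fold. Of 11 listed endothelial markers 1 was measured, Esam, which rose 2.12-fold, with overlapping genotypes and detection on 2 of 4 control arrays. The endothelial sum was 264 to 303 and 306 to 430, with Pecam1, Cdh5, Tek, Tie1, Vwf and Emcn detected on no array. Astrocyte markers, 10 of them measured, had 3 that rose, 2 that fell and 5 not called, with summed signals of 8793 to 10803 and 9703 to 12402 and with S100b detected on no array. Clu, a secreted chaperone gene, rose 10.1-fold, and Ntsr2, a neurotensin receptor gene, fell 4.06-fold. The part of these cells in the Vim difference was not tested.

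The remaining lists held few measured genes. Of 13 microglia and macrophage markers 1 was measured, Aif1, with a log2 difference of 0.33 that was not called (limma adjusted p = 0.0792), and the sums were 251 to 267 and 285 to 396. Aif1 fell short of the detection filter when any 1 depleted array was left out. Of 10 neural crest, Schwann cell and melanocyte markers 2 were measured. Ngfr, a neurotrophin receptor gene, rose 3.86-fold, with detection on 2 of 4 control arrays. Pmel, detected on no depleted array, fell at least 2.11-fold. The sums were 214 to 279 and 276 to 342. Of 5 measured ependymal and choroid plexus markers, Cd24a rose 2.12-fold, Rsph1 rose 1.51-fold, Foxj1 fell 1.37-fold and 2 missed the threshold. The call of Rsph1 held in 13 of 22 settings, and 1 gene rose without control 1, Prmt5-depleted 2 or Prmt5-depleted 3. Their summed signal was 327 to 1435 in control cells and 836 to 22166 in Prmt5-depleted cells. Ttr, a choroid plexus gene that was not called (limma adjusted p = 0.0587), made up as much as 98% of that sum, and without it the sums were 283 to 378 and 360 to 440.

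**Figure D5:**
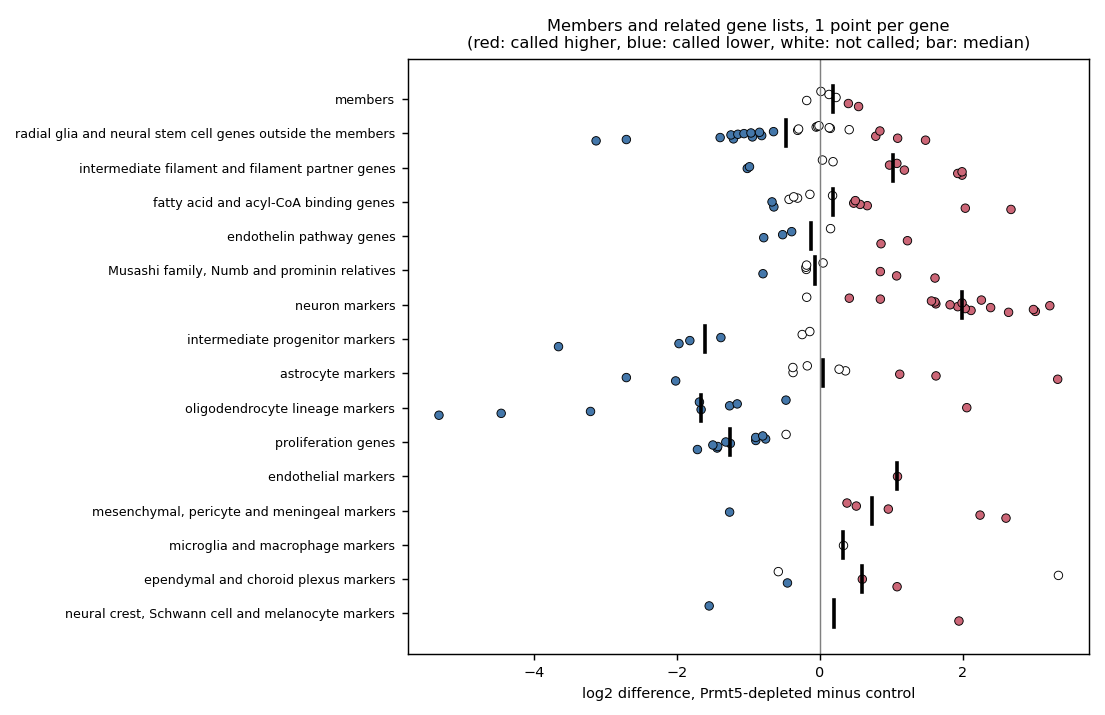
Log2 difference between Prmt5-depleted and control cells (horizontal axis) of each measured gene in the members and in the 15 related lists (vertical axis), with the list median as a bar; red points were called higher, blue lower and white not called. The members lie between -0.18 and 0.54, while other radial glia and stem cell genes run from -3.14 to 1.48.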

How the data were processed

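The members and the gene lists were chosen with earlier results of these data known, so neither is independent support. Some lists share genes, such as Fgfr3 in the radial glia and astrocyte lists, so counts of different lists are not separate observations. The authors deposited non-normalized intensity values for 25662 probes on 8 arrays, each with its detection p-value, per the file headers. Which scanner software made them, and with what background step, is not given in the sources used here. A comparison of values found the authors' series matrix equal to the quantile-normalized intensity table. The matrix was on a linear scale, uncentred, with column medians of 95.7 or 95.8. It served as an alternative that repeats the one without background correction, and counts of alternatives include both. Columns were matched to samples by name.

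Normalization was neqc (limma 3.58.1, R 4.3.3): normexp from detection p-values, an offset of 16, quantile scaling and log2. The detection filter left 13196 probes (51.4%). A gene detected on arrays of 1 genotype only passed that filter through the genotype where it was higher, so its call is not separate support. Quantile scaling hides a change shared by most genes, and the offset pulls dim probes towards 0. Genotypes were compared by lmFit and eBayes, two-sided and without covariates, with Benjamini-Hochberg adjustment over all kept probes; the code was tested on simulated data. A gene was represented by its brightest kept probe. Where no array of a genotype detected a gene, the fold is at least the ratio to the lowest signal of a detected probe. Platform annotation named 1 gene for 23943 probes and none for 1719; 0 probes had several, and 0 symbols changed when 23927 were matched to RefSeq (GRCm38.p6).

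Members were named at every probe, and from each list up to 4 called genes with the smallest adjusted p and up to 2 against most of their list. Plec, Dst, Fabp5, Numbl, Olig1, Gadd45g, Neurod1, Ttr and undetected genes were picked after their values were seen. Genes with a profile like a member's were to be named where that member was called with an absolute log2 difference of at least 1, which none was. Alternatives covered background, offset, normalization, filter, variance model, array weights, replicate block, the split along the second component, probe averaging and each array left out; leaving out the 3 arrays was chosen after seeing the data.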

Additional observations from a re-analysis of the deposited data

Results flagged for a closer look

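In 26 groups of 4 values, 3 held an array whose gap to its nearest neighbour took up most of the range (95% critical value of Dixon's test), and chance flags about 1 in 20 such groups. Vim on Prmt5-depleted 1 read 14.08 against 13.90 to 13.92 on the other depleted arrays, a gap of 0.914 of the range. Dbi at ILMN_1215469 on control 4 read 15.44 against 14.74 to 14.84 on the other control arrays (0.865). Ednrb at ILMN_2589640 on control 1 read 12.55 against 13.04 to 13.08 (0.93). Without these arrays the log2 differences were 0.51 for Vim, 0.18 for Dbi and 0.10 for Ednrb.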

How the results depend on the processing

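Where 2 member probes were called higher, the number was 0 with median scaling, 1 without the detection filter, 1 with the replicate number as a block, 3 without the 3 arrays that stood apart, and 1 to 2 with each array left out. By gene the counts were the same, and averaging all probes of a gene left 1. No member was called lower in any alternative. Of all tested probes, 46.7% were called in the main fit, 42.8% with median scaling and 24.2% without the detection filter. The share was 41.8% with the block, 42.8% without the 3 arrays that stood apart and 41.2% to 46.7% with each array left out. Whether replicate numbers pair the arrays is not in the labels. Deviations of same-numbered arrays correlated at -0.14, 0.24, -0.16 and -0.37, and 1 of 8 arrays correlated best with its own number. With so few arrays these values cannot settle whether the numbers pair. The shift of Nes minus Vim was 0.0068 with median scaling, 0.026 without the 3 arrays that stood apart, -0.39 with averaged probes and -0.21 to -0.06 with each array left out. With arrays paired by replicate number it was -0.14 (exact permutation p = 0.375), and among the member probes the block changed no call other than that of Nes. Signs turned at values near 0, none called. Msi2 at ILMN_2684651 was 0.043 with cyclic loess, 0.012 with median scaling, 0.11 without those 3 arrays and -0.16 to 0.022 with each array left out. Dbi at ILMN_1215469 was -0.021 with cyclic loess, -0.19 with median scaling, -0.094 with the split as a covariate and -0.055 to 0.18 with each array left out. Dbi at ILMN_3150159 was -0.15 with median scaling. Dbi at ILMN_3071356 was -0.069 with the split as a covariate, -0.14 without the 3 arrays and -0.064 to 0.20 with each array left out. Nes at ILMN_2904590 was 0.064 with array weights and -0.20 to 0.013 with each array left out. Fabp7 was -0.090 to 0.29 with each array left out. The causes were not tested. The planned comparison of Msi1 with Msi2 was not run, as Msi1 had no kept probe. Low signal over background limits Msi1, Hopx and Prom1.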

Other observations

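Ttr, the transthyretin gene of the choroid plexus, varied more between arrays than any member. The control arrays read 5.47, 10.10, 9.05 and 4.61 on the log2 scale, with detection on 3 of 4, and the Prmt5-depleted arrays read 8.79, 14.41, 9.18 and 10.21. The highest was on Prmt5-depleted 2 and the lowest on control 4, and the genotype difference of 3.34 on the log2 scale was not called (limma adjusted p = 0.0587). Prmt5-depleted 2 was also the highest depleted array for Fabp7, for the brighter Nes probe and for the brightest Ednrb probe. Control 4, where Ttr was lowest, was likewise the highest control array for each of those 3 probes.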
